A study of Mus musculus with 26 samples.

Results

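The proteasome is assembled with one of 2 sets of catalytic beta subunits, and 9 of the 47730 features in the count table describe that choice. Of the members, 5 belong to the immunoproteasome side, namely the catalytic subunits Psmb8, Psmb9 and Psmb10 and the PA28 activator subunits Psme1 and Psme2. The other 4 are the constitutive catalytic subunits Psmb5, Psmb6 and Psmb7 and the separate activator Psme3 (PA28 gamma). They were chosen by name, and all 9 were among the 16637 features that passed the filter on low counts.

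RNA was sequenced from E-A14 cells, a Her2-expressing line derived from mammary tumours of the mouse. Cells were implanted in the fourth mammary fat pad of FVB/N mice aged 6 to 8 weeks. Depleted mice received 100 µg each of anti-CD4 and anti-CD8a by injection into the peritoneum, and IgG mice received 100 µg each of rat IgG2a and IgG2b, in both cases 2 times a week from 2 weeks before implantation. Tumours were collected on day 20 from depleted mice and on day 47 from IgG mice, so treatment and day cannot be told apart in any comparison of the treatments. From the digested tumours, live cells that were Her2-positive and negative for CD90, CD105 and CD45 were sorted into an EpCAM-negative and an EpCAM-positive fraction. The 5 groups were therefore depleted EpCAM-negative, depleted EpCAM-positive, IgG EpCAM-negative and IgG EpCAM-positive cells, with 6 libraries each, and the cultured line, with 2 libraries. Every group derives from that single line. Whether the cultures were grown apart is not stated, nor which fractions came from the same tumour, so p-values against them may reflect technical spread.

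In the constitutive 20S core, Psmb6 provides the caspase-like (beta1), Psmb7 the trypsin-like (beta2) and Psmb5 the chymotrypsin-like (beta5) activity. Interferon-gamma, a cytokine of activated T and NK cells, induces Psmb9, Psmb10 and Psmb8, which take the beta1, beta2 and beta5 places in newly built particles and favour peptides that fit MHC class I molecules. The same cytokine induces Psme1 and Psme2, which together form a cap on the 20S core, whereas Psme3 forms a nuclear cap by itself. Genes of the constitutive subunits are known targets of the transcription factor NRF1, encoded by Nfe2l1, when proteasome activity falls.

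Promoter sequence from RefSeq (GRCm38.p6, bases upstream of the annotated start) was found for 8 of the 9 members, all except Psmb7. The windows of 250 bases were searched on both strands for the spaced interferon-stimulated response element (TTTC, any 2 bases, TTTC), the gamma-activated site TTCNNNGAA, and the antioxidant response element TGACNNNGC that NRF1 can bind. TTCNNNGAA was present in Psmb8 alone among the members and in 7.02% of 32851 promoters of the same length. TGACNNNGC was present in Psmb5 and Psmb6 and in 10.2% of all promoters, and the interferon-stimulated response element was in no member and in 2.98% of all. A stretch of each of the 3 windows with a match is shown because they carry these letters in the immunoproteasome member with the largest differences and in 2 constitutive members, and capitals mark the match. For Psmb8, whose window lies wholly in annotated Psmb8 exon, 30 bases around the match are printed. For Psmb5 the 27 bases next to the start, also annotated exon, are left out, and for Psmb6 all 250 bases are printed.
Psmb8, chr17:34198088-34198117, plus strand: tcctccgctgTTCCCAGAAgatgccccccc
Psmb5, chr14:54618023-54618245, minus strand: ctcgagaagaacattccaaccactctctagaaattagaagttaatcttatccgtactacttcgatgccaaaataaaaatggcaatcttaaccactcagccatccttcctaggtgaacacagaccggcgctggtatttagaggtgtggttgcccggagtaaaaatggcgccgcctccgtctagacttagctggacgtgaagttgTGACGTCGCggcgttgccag
Psmb6, chr11:70525107-70525356, plus strand: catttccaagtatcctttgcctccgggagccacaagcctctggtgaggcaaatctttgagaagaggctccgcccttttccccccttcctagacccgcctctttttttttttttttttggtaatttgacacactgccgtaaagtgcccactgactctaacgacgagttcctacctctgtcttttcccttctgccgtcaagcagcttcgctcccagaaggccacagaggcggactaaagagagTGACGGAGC
The match begins at position -97 of Psmb8, -47 of Psmb5 and -9 of Psmb6, counted from the annotated start. A match of letters is a description of the window and not evidence of a bound site. Nor does a missing match show that a member lacks the element, since only fixed letters within 250 bases were searched. Annotated exon also took up part of other windows, such as 139 bases for Psme1. Psmb9 lies head to head with Tap1, a subunit of the peptide transporter, and 225 bases separate their RefSeq starts. Both upstream windows hold these bases. All 250 bases of each window also lie in annotated exons of Psmb9 or Tap1, so this stretch is not only upstream DNA.

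Libraries held 17559520 to 38740143 counts, and the totals of depleted and IgG libraries did not overlap. The rat Neu transgene, which encodes Her2 in this line, averaged 448 and 536 CPM (counts divided by the TMM-scaled library size) in depleted EpCAM-negative and EpCAM-positive cells, 577 and 305 CPM in the matching IgG fractions, and 552 CPM in culture. Epcam averaged 140 CPM in depleted EpCAM-negative cells, where it ran from 40.0 to 284 CPM, against 2437 CPM in depleted EpCAM-positive cells. It averaged 1.63 CPM in IgG EpCAM-negative cells, where it ran from 1.06 to 2.39 CPM, against 1183 CPM in IgG EpCAM-positive cells. Epcam transcripts were therefore far more abundant in the EpCAM-negative fraction of depleted tumours than in its IgG counterpart. Eng, which encodes the excluded CD105, averaged 1.68 and 1.27 CPM in the depleted EpCAM-negative and EpCAM-positive fractions, against 2.44 and 3.24 CPM in the matching IgG fractions, and 0.945 CPM in culture. Values for the other excluded surface proteins, CD45 and CD90, stand with the markers of other cells.

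Psmb8 and Psmb9 were much lower in depleted than in IgG tumour cells. Psmb8, the inducible beta5 subunit, ran from 9.27 to 15.6 CPM with a median of 13.4 in depleted EpCAM-negative cells, against 80.9 to 158 CPM with a median of 113 in IgG EpCAM-negative cells. In the EpCAM-positive fraction it ran from 9.27 to 17.7 CPM with a median of 12.4 in depleted tumours, against 65.8 to 144 CPM with a median of 85.2 in IgG tumours. All 12 depleted libraries therefore lay below all 12 IgG libraries. The log2 fold change was -3.12 ± 0.21 (SE) in the EpCAM-negative and -2.81 ± 0.21 in the EpCAM-positive fraction, that is 8.67-fold and 7.01-fold lower (edgeR quasi-likelihood test with Benjamini-Hochberg adjustment over 16637 genes, adjusted p = 4.75e-12 and 4.12e-11).

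Psmb9, the inducible beta1 subunit, had a similar order. It ran from 7.27 to 14.5 CPM with a median of 11.6 in depleted EpCAM-negative cells, against 49.5 to 99.9 CPM with a median of 62.5 in IgG EpCAM-negative cells. EpCAM-positive cells had 10.4 to 20.0 CPM with a median of 13.7 in depleted tumours, against 31.4 to 82.8 CPM with a median of 49.3 in IgG tumours. The treatments did not overlap in either fraction. Psmb9 was 5.99-fold lower in depleted EpCAM-negative cells, a log2 fold change of -2.58 ± 0.20, and 3.65-fold lower in depleted EpCAM-positive cells, a log2 fold change of -1.87 ± 0.20 (edgeR, adjusted p = 1e-10 and 2.97e-08).

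Psmb10, the inducible beta2 subunit, differed less between the treatments and also differed between the fractions. It ran from 33.8 to 50.2 CPM with a median of 37.6 in depleted EpCAM-negative cells, against 60.3 to 73.0 CPM with a median of 65.8 in IgG EpCAM-negative cells. EpCAM-positive cells had 17.8 to 33.7 CPM with a median of 22.6 in depleted tumours, against 32.3 to 51.3 CPM with a median of 43.5 in IgG tumours. The treatments were separate in the EpCAM-negative fraction and overlapped by a single library on each side in the EpCAM-positive fraction. Psmb10 was 1.67-fold lower in depleted EpCAM-negative and 1.75-fold lower in depleted EpCAM-positive cells, with log2 fold changes of -0.74 ± 0.13 and -0.81 ± 0.13 (edgeR, adjusted p = 5.72e-05 and 2.6e-05).

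**Figure D1:**
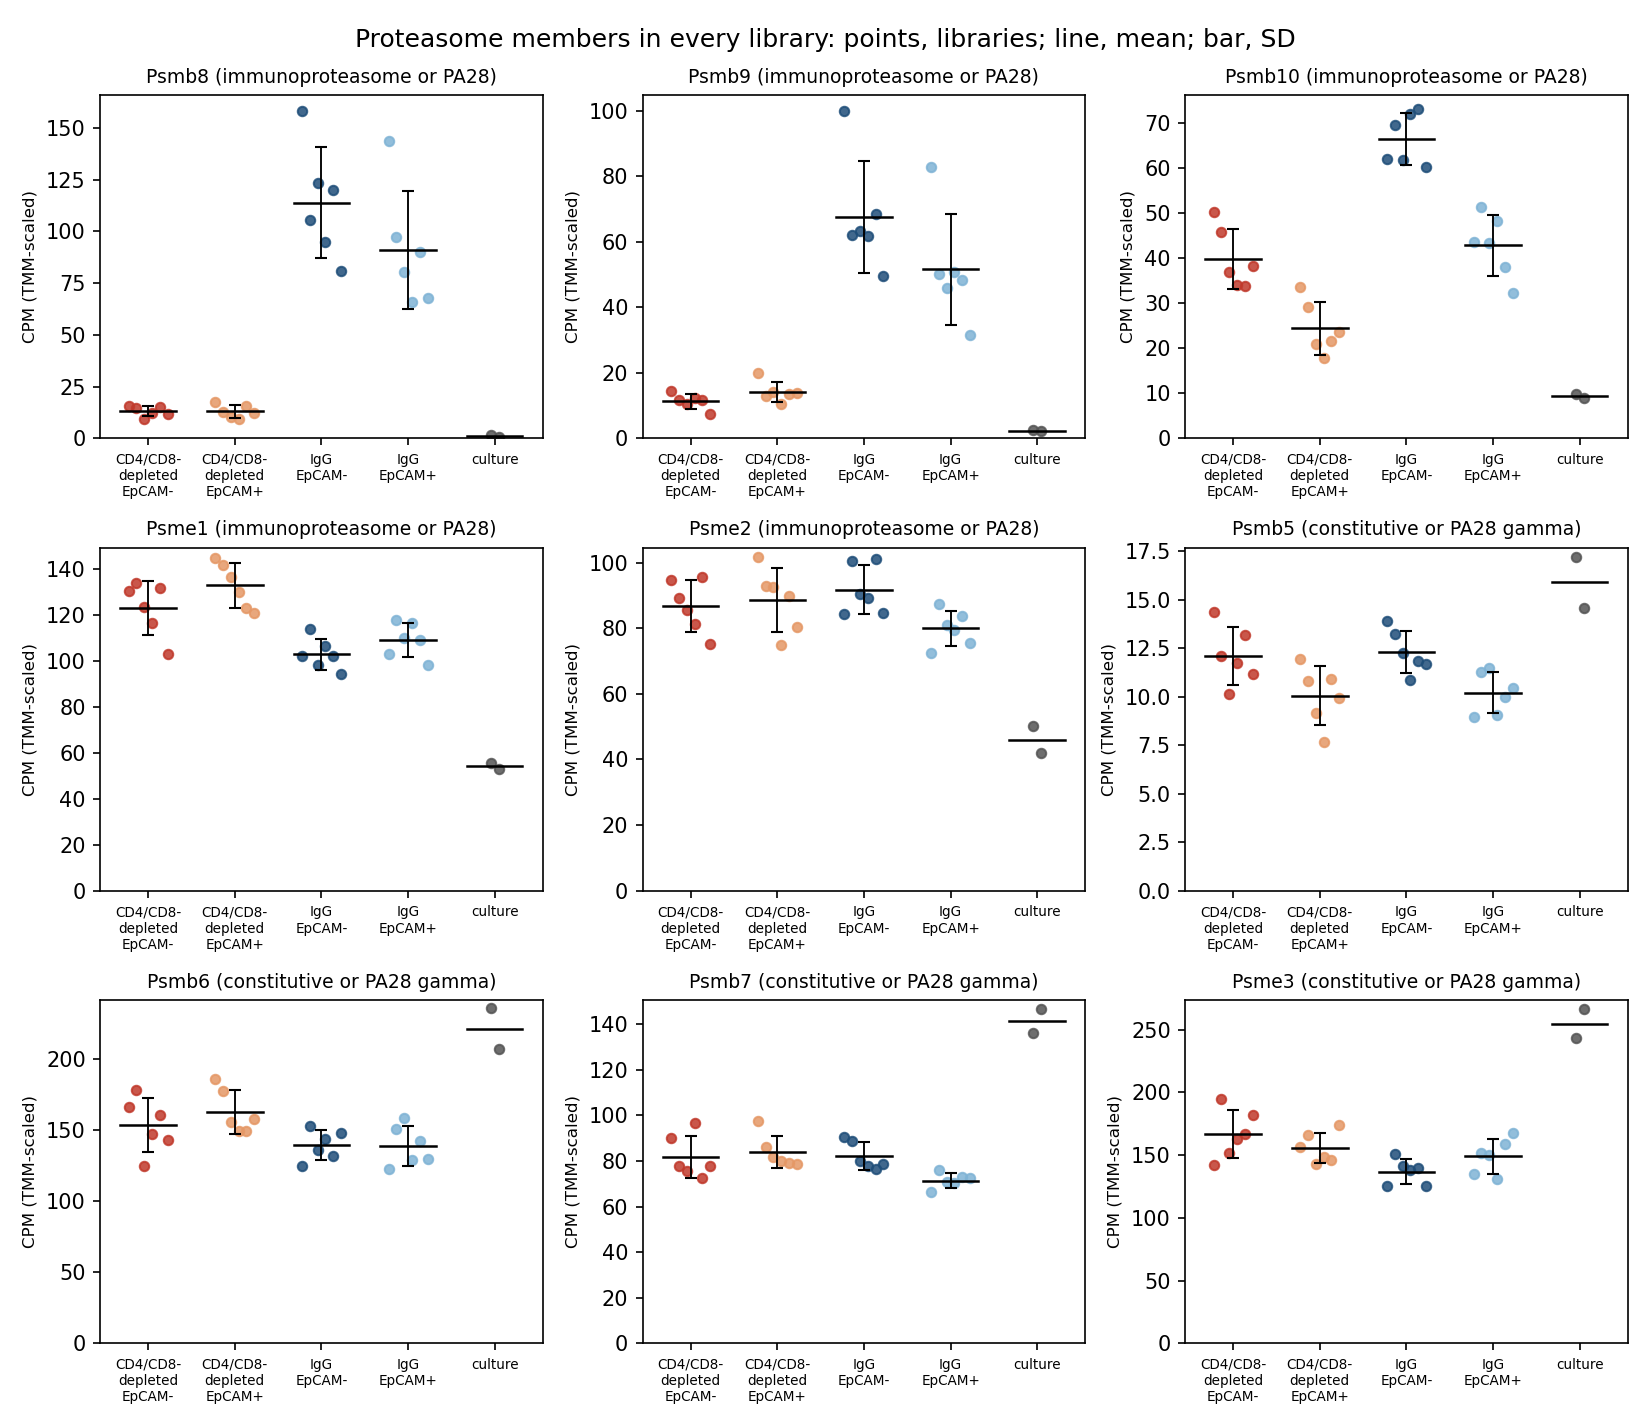
CPM of each member (y axis, TMM-scaled, from 0) in every library of the 5 groups (x axis); points are libraries, lines are means and bars are SD for the groups of 6. Psmb8 and Psmb9 lie below 21 CPM in every depleted library and above 31 CPM in every IgG library, while Psmb5, Psmb6, Psmb7 and Psme3 are highest in the cultures.

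The activator subunits did not share the direction of the catalytic immunosubunits. Psme1, the alpha subunit of PA28, averaged 123 ± 11.7 CPM in depleted EpCAM-negative cells and 103 ± 6.74 CPM in IgG EpCAM-negative cells (SD, n = 6 each). In EpCAM-positive cells it averaged 133 ± 9.80 CPM in depleted and 109 ± 7.54 CPM in IgG tumours. It was higher in depleted cells by 0.26 ± 0.07 and 0.28 ± 0.07 on the log2 scale (SE, edgeR, adjusted p = 0.00295 and 0.00166). Psme2, the beta subunit of PA28, did not pass the test, with log2 fold changes of -0.08 ± 0.08 in EpCAM-negative cells (adjusted p = 0.45) and 0.15 ± 0.08 in EpCAM-positive cells (adjusted p = 0.143). Its 95% intervals ran from -0.24 to 0.09 and from -0.01 to 0.31. Psme2 levels were 75.2 to 95.5 CPM in depleted EpCAM-negative and 74.7 to 102 CPM in depleted EpCAM-positive libraries, against 84.4 to 101 CPM and 72.4 to 87.4 CPM in the matching IgG libraries, so the treatments overlapped.

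Among the constitutive members, no gene was lower in depleted cells at the threshold. Psmb5 averaged 12.1 ± 1.49 CPM in depleted EpCAM-negative cells and 12.3 ± 1.11 CPM in IgG EpCAM-negative cells (SD, n = 6 each). Its log2 fold change was -0.02 ± 0.11 in each fraction (SE, adjusted p = 0.894 and 0.907), with 95% intervals from -0.26 to 0.21 and from -0.26 to 0.22. Psmb6 was higher in depleted EpCAM-positive cells, at 162 ± 15.2 CPM against 139 ± 14.0 CPM in IgG EpCAM-positive cells, a log2 fold change of 0.23 ± 0.08 (adjusted p = 0.0317). That call was lost with no filter on low counts (0.20, adjusted p = 0.107) and without the libraries numbered 1 of all 4 tumour groups (0.15, adjusted p = 0.194), and it was also lost without depleted EpCAM-positive library 1 or 2 or without IgG EpCAM-positive library 1, 4 or 6, where adjusted p ran from 0.0662 to 0.0871. Psmb7 was likewise higher in depleted EpCAM-positive cells, at 83.8 ± 7.13 CPM against 71.4 ± 3.19 CPM in IgG EpCAM-positive cells, by 0.23 ± 0.07 on the log2 scale (adjusted p = 0.0127), but it did not pass with no filter (0.20, adjusted p = 0.0683) or without the libraries numbered 1 (0.15, adjusted p = 0.0925). In EpCAM-negative cells Psmb6 (0.14 ± 0.08) and Psmb7 (-0.01 ± 0.07) did not pass. Psme3 was higher in depleted EpCAM-negative cells, at 167 ± 19.2 CPM against 137 ± 10.0 CPM in IgG EpCAM-negative cells, by 0.29 ± 0.08 (adjusted p = 0.00369). It did not pass in EpCAM-positive cells (0.06 ± 0.08, adjusted p = 0.566).

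Of the 9 members, 5 passed in the EpCAM-negative and 6 in the EpCAM-positive fraction, where 45.1% and 40% of all tested genes passed. Of the 5 immunoproteasome members, 3 were lower, 1 was higher and 1 did not pass in each fraction, with a median log2 fold change of -0.74 in the EpCAM-negative and -0.81 in the EpCAM-positive fraction, beside 0.03 and -0.02 over all tested genes. Of the 4 constitutive members, 1 was higher in EpCAM-negative and 2 were higher in EpCAM-positive cells and none was lower, with medians of 0.06 and 0.15. Of all tested genes, 23.2% were lower and 21.9% higher in the EpCAM-negative fraction, and 22.4% were lower and 17.6% higher in the EpCAM-positive fraction. Groups did not overlap for 3 lower members in EpCAM-negative cells and for 2 lower (Psmb8, Psmb9) and 2 higher members (Psme1, Psmb7) in EpCAM-positive cells, where 14.5%, 12.5% and 9.21% of all tested genes were likewise separate. In EpCAM-negative cells, 4.64% of tested genes had a log2 fold change below that of Psmb8 and 5.78% one below that of Psmb9.

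**Figure D2:**
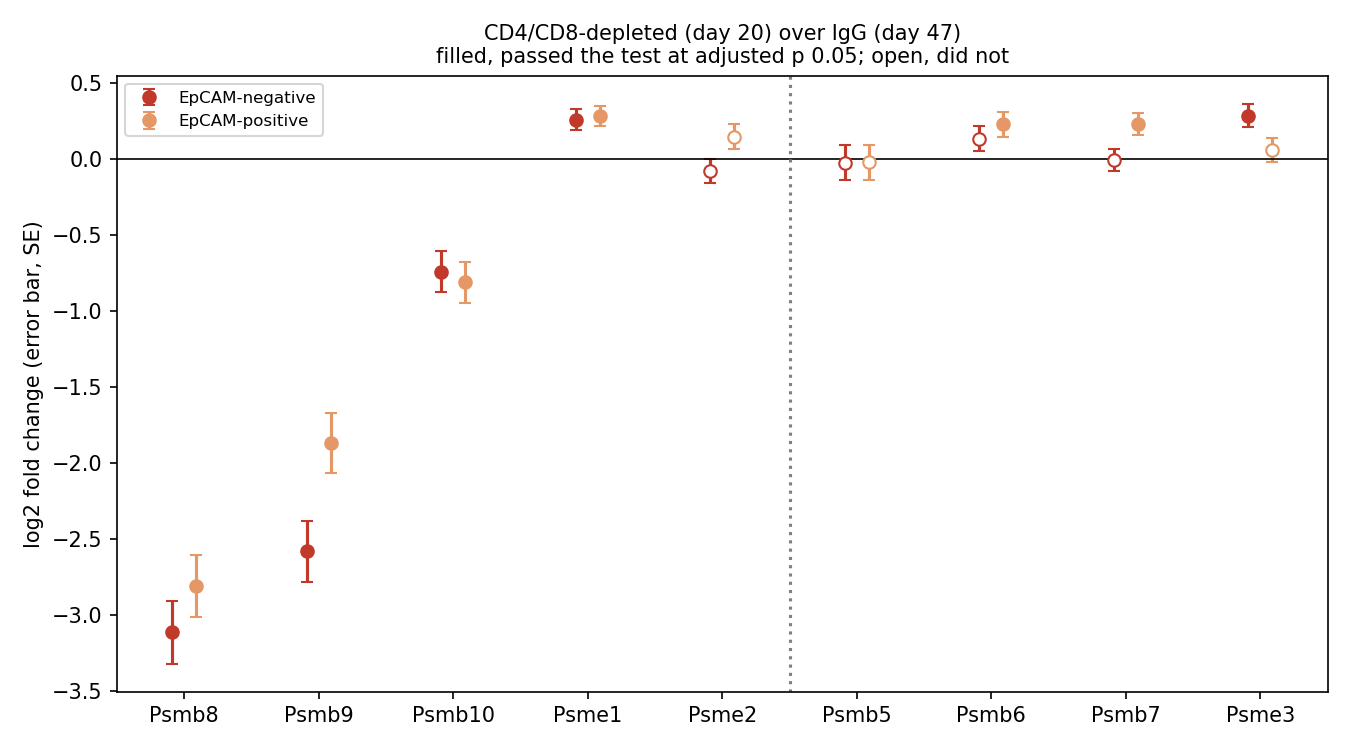
Log2 fold change of depleted over IgG cells (y axis, error bars SE) for the 9 members (x axis) in the EpCAM-negative and EpCAM-positive fraction; filled points passed the test. Psmb8 (-3.12 and -2.81), Psmb9 and Psmb10 lie below 0 in both fractions, and the remaining members lie between -0.08 and 0.29.

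Relative to their constitutive partners, the inducible beta subunits changed rank between the treatments at the beta5 place only. These ratios are of CPM per kilobase of transcript and are given as a description. The ratio Psmb8/Psmb5 ran from 0.504 to 0.674 in depleted EpCAM-negative and from 0.606 to 0.820 in depleted EpCAM-positive libraries, against 3.82 to 6.28 in IgG EpCAM-negative and 3.59 to 8.83 in IgG EpCAM-positive libraries. It was therefore below 1 in all 12 depleted and above 1 in all 12 IgG libraries, and it was 0.0310 and 0.0452 in the cultures. The position of this ratio relative to 1 is uncertain because 57.1% of the 50-base windows of the Psmb5 transcript, the length of the reads, also occur in other genes, mainly Gm3375. Gm3375 received 9508 counts over the 26 libraries and Psmb5 received 8272, and the treatment of reads that match both was not given in the sources used here.

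The ratio Psmb9/Psmb6 averaged 0.0435 ± 0.00808 in depleted EpCAM-negative and 0.0511 ± 0.00815 in depleted EpCAM-positive cells, against 0.291 ± 0.0963 and 0.224 ± 0.0909 in the matching IgG cells (SD, n = 6 each). Psmb10/Psmb7 averaged 0.434 ± 0.0724 in depleted EpCAM-negative and 0.256 ± 0.0425 in depleted EpCAM-positive cells, against 0.720 ± 0.0914 and 0.531 ± 0.0853 in the matching IgG cells. Both ratios stayed below 1 in every library, with the inducible beta1 subunit the scarcest relative to its partner. Psme1/Psme3 overlapped between all tumour groups. It averaged 1.79, 2.06, 1.81 and 1.77 in depleted EpCAM-negative, depleted EpCAM-positive, IgG EpCAM-negative and IgG EpCAM-positive cells. Psme2/Psme3 averaged 1.46, 1.58, 1.86 and 1.49 in the same groups. It ran from 1.77 to 2.01 in IgG EpCAM-negative and from 1.25 to 1.68 in IgG EpCAM-positive libraries, without overlap. Psme2 shares 59.3% of its 50-base windows with other genes, mainly Psme2b, which received 1407 counts beside 58620 for Psme2. Psmb7 shares 28.1% of its windows with Nek6, which bears on Psmb10/Psmb7.

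**Figure D3:**
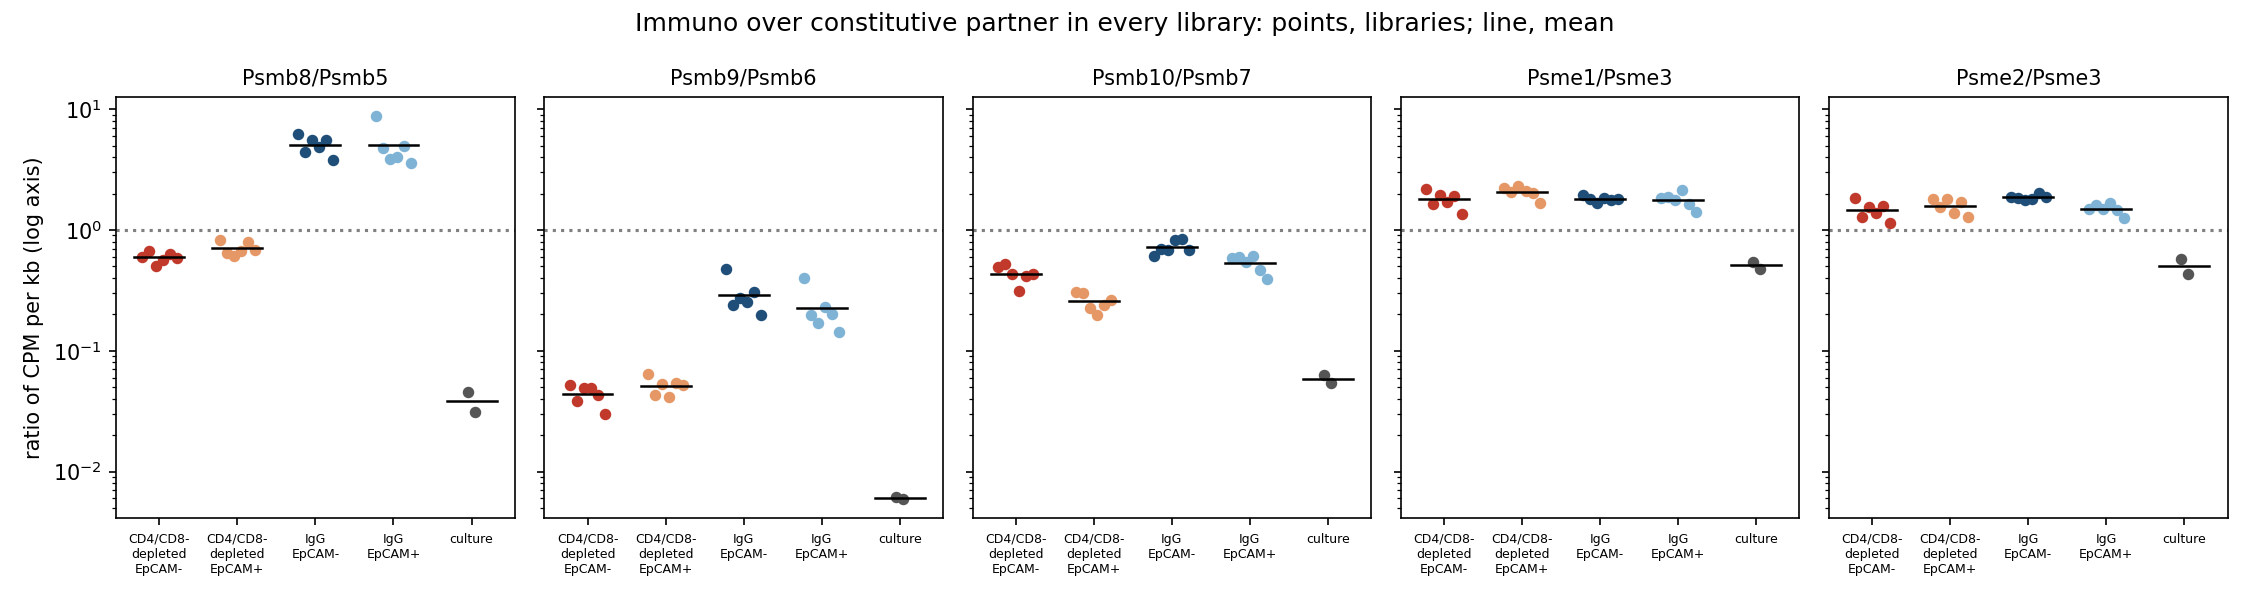
Ratio of each immunoproteasome or PA28 member to its constitutive partner, in CPM per kilobase (y axis, log scale shared by the panels), in every library of the 5 groups (x axis); points are libraries, lines are means, and the dotted line marks a ratio of 1. Psmb8/Psmb5 lies below 1 in the depleted and above 1 in the IgG libraries, and all 5 ratios are lowest in culture.

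Between the fractions of a tumour, Psmb10 was the member that differed in both treatments. It was higher in EpCAM-negative than in EpCAM-positive cells by 0.70 ± 0.14 on the log2 scale in depleted tumours and by 0.64 ± 0.13 in IgG tumours (SE, edgeR, adjusted p = 0.000223 and 0.000658), or 1.63-fold and 1.55-fold. EpCAM-negative and EpCAM-positive libraries of Psmb10 did not overlap in either treatment, as held for 7.1% (depleted) and 6.31% (IgG) of all tested genes in that direction. In IgG tumours Psmb7 was also higher in EpCAM-negative cells, at 82.1 ± 6.06 CPM against 71.4 ± 3.19 CPM in EpCAM-positive cells, by 0.20 ± 0.07 (adjusted p = 0.0391). Those groups did not overlap either. The call was lost without any single IgG EpCAM-positive library or without IgG EpCAM-negative library 1 or 2 (adjusted p from 0.0618 to 0.146), and without all libraries numbered 1 (0.12, adjusted p = 0.24). The call counts were 1 of 9 members in depleted and 2 of 9 in IgG tumours, where 28.5% and 27.9% of all tested genes passed and 14.2% and 13.3% were higher.

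Psmb8 and Psmb9 did not pass between the fractions in the fit to all libraries, and their calls depended on single libraries and on the model. Psmb8 had a log2 fold change of EpCAM-negative over EpCAM-positive cells of 0.02 ± 0.20 in depleted tumours (95% interval -0.39 to 0.43, adjusted p = 0.969) and 0.32 ± 0.19 in IgG tumours (-0.06 to 0.71, adjusted p = 0.216). For Psmb9 the values were -0.33 ± 0.20 in depleted tumours (-0.74 to 0.08, adjusted p = 0.239) and 0.39 ± 0.19 in IgG tumours (-0.000623 to 0.78, adjusted p = 0.134). Without IgG EpCAM-positive library 1, in which both genes were highest, both passed in IgG tumours, with 0.50 for Psmb8 and 0.57 for Psmb9 (adjusted p = 0.0358 and 0.0157). Without all libraries numbered 1, Psmb9 had 0.40 (adjusted p = 0.0346). In an edgeR fit with a block for library number within each treatment, both genes passed in IgG tumours. Psmb8 then had 0.32 and Psmb9 0.39 (adjusted p = 0.00765 and 0.00985), and Psmb9 also passed in depleted tumours (-0.34, 0.0298). Whether the numbers pair the fractions is not stated. When the difference of the EpCAM contrasts, depleted minus IgG, was tested, 0 of 9 members passed (18% of all tested genes did). At an unadjusted p under 0.05 there were 2 members, Psmb9 with -0.72 ± 0.27 (unadjusted p = 0.0147, adjusted p = 0.072) and Psmb7 with -0.24 ± 0.10 (0.0284 and 0.115). Psmb9 passed without depleted EpCAM-negative library 1 (-0.80, adjusted p = 0.0472), IgG EpCAM-positive library 1 (-0.90, 0.0117) or IgG EpCAM-negative library 6 (-0.79, 0.0479), and without all libraries numbered 1 (-0.71, 0.0164). Psmb7 passed without depleted EpCAM-negative library 4 (-0.29, 0.0498). With the block for library number, Psmb9 (-0.73, adjusted p = 0.00312) and Psme2 (-0.22, 0.0427) passed in the difference.

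Against the cultured line, the 5 immunoproteasome members were higher and the constitutive members lower in tumour cells of every group, with Psmb5 in IgG EpCAM-negative cells the exception that did not pass. Psmb8 had 1.41 and 0.819 CPM in the 2 cultures, from 44 and 32 counts. Its log2 fold change over culture was 3.57 ± 0.38 in depleted EpCAM-negative, 3.55 ± 0.38 in depleted EpCAM-positive, 6.69 ± 0.43 in IgG EpCAM-negative and 6.36 ± 0.42 in IgG EpCAM-positive cells (SE, edgeR, adjusted p = 2.69e-08, 3.78e-08, 1.3e-12 and 3.64e-12). Psmb9 had 2.47 and 2.07 CPM in culture, and its log2 fold changes in the same groups were 2.31, 2.64, 4.89 and 4.51. Psmb10 had 9.75 and 8.96 CPM in culture, and its log2 fold changes were 2.09, 1.39, 2.83 and 2.19. Depleted tumour cells therefore lay between culture and IgG tumours for all 3 inducible catalytic subunits.

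Psme1 had 55.6 and 53.2 CPM in culture, and tumour cells were higher by 1.18 in depleted EpCAM-negative, 1.29 in depleted EpCAM-positive, 0.92 in IgG EpCAM-negative and 1.01 in IgG EpCAM-positive cells on the log2 scale. Psme2 had 50.3 and 41.8 CPM in culture, and tumour cells were higher by 0.92, 0.94, 0.99 and 0.80 in the same groups. Both PA28 subunits passed in all 4 groups, with adjusted p-values of 3.11e-06 or less. The 4 comparisons share the 2 culture libraries and are therefore not independent.

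The constitutive members were highest in culture. Psmb6 had 236 and 207 CPM in culture, and its log2 fold change in tumour cells ran from -0.67 to -0.44. Psmb7 had 136 and 147 CPM in culture, with values from -0.99 to -0.76, and Psme3 had 243 and 267 CPM, with values from -0.90 to -0.61. Psmb5 had 17.2 and 14.6 CPM in culture, and it was lower by -0.39 ± 0.16 in depleted EpCAM-negative (adjusted p = 0.0465), -0.66 ± 0.16 in depleted EpCAM-positive (0.00126) and -0.64 ± 0.15 in IgG EpCAM-positive cells (0.00118), while IgG EpCAM-negative cells had -0.37 ± 0.16 (0.0519). The call in depleted EpCAM-negative cells was kept in 3 of 7 other settings, and lost with thinned counts (-0.32, adjusted p = 0.117), with no filter (-0.45, 0.0668) and with only the groups compared (-0.41, 0.0772). Summing Psmb5 with Gm3375 moved depleted EpCAM-negative cells to -0.33 (adjusted p = 0.0508) and IgG EpCAM-negative cells to -0.36 (0.0309). Psmb5 also lost its call in depleted EpCAM-negative cells without library 3 or 6 (0.0524 and 0.0737) and gained one in IgG EpCAM-negative cells without library 1 or 2 (0.0217 and 0.028). Without culture library 1, Psmb5 did not pass in any group, with 0.374 in depleted EpCAM-negative, 0.0578 in depleted EpCAM-positive and 0.0543 in IgG EpCAM-positive cells, and Psmb6 had -0.35 (0.0996) in depleted EpCAM-positive cells. Between 8 and 9 of the 9 members passed in each comparison with culture, where 42.4% of all tested genes passed for depleted EpCAM-negative, 39.5% for depleted EpCAM-positive, 50.7% for IgG EpCAM-negative and 50.2% for IgG EpCAM-positive cells. In the same order, 21.8%, 20.9%, 26.5% and 27.8% of all tested genes were higher and 20.6%, 18.6%, 24.2% and 22.4% lower.

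**Figure D4:**
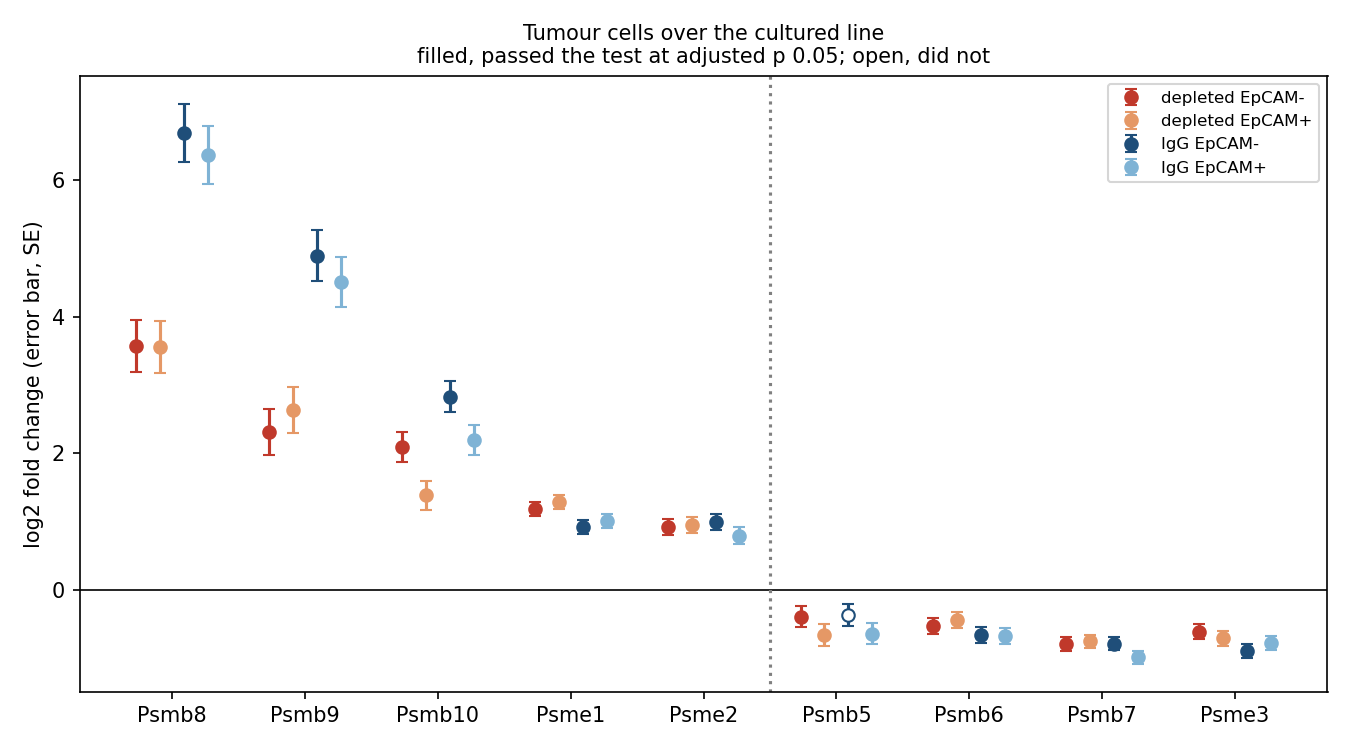
Log2 fold change of each tumour group over the cultured line (y axis, error bars SE) for the 9 members (x axis), with the immunoproteasome side left of the dotted line; filled points passed the test. Immunoproteasome members lie above 0 and constitutive members below 0 in all 4 groups, and Psmb5 in IgG EpCAM-negative cells (-0.37) is the open point.

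In the order of levels, Psmb8 and Psmb9 were highest in both IgG fractions, which overlapped each other, then in both depleted fractions, which also overlapped, and lowest in culture. Psmb10 was ordered from high to low as IgG EpCAM-negative, IgG EpCAM-positive, depleted EpCAM-negative, depleted EpCAM-positive and culture, and of these neighbours only IgG EpCAM-positive and depleted EpCAM-negative libraries overlapped. Psme1 and Psme2 had overlapping neighbours throughout the tumour groups and no overlap with culture. Each constitutive member was highest in culture, apart from the tumour groups, whose neighbours in the order overlapped. Per kilobase of transcript, Psmb6 was the most abundant member in tumour cells, at 192 CPM per kb in depleted EpCAM-negative and 175 CPM per kb in IgG EpCAM-negative cells.

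Against culture, most other subunits of the 20S core and the 19S regulatory particle were lower in tumour cells, as were the constitutive members, whereas assembly factors and other activators were mixed. Of the 7 tested alpha subunits of the 20S core, all 7 were lower in depleted EpCAM-negative cells and in both IgG fractions, and 6 in depleted EpCAM-positive cells. Of 19 tested genes of the 19S regulatory particle, which unfolds substrates, 17 were lower in each depleted fraction, 16 in IgG EpCAM-negative and 18 in IgG EpCAM-positive cells, where 1 was higher. Psmc2, an ATPase of that particle, had log2 fold changes of -0.82 in depleted EpCAM-negative and -0.85 in IgG EpCAM-negative cells. Medians over culture were -0.61 for alpha subunits and -0.57 for the 19S particle in depleted EpCAM-negative cells, beside 0.09 for all tested genes. The non-catalytic beta subunits had 4, 4, 3 and 4 of 4 tested genes lower in depleted EpCAM-negative, depleted EpCAM-positive, IgG EpCAM-negative and IgG EpCAM-positive cells. In that order of groups, 3, 5, 3 and 4 of 8 tested assembly factors were lower and 0, 0, 2 and 1 higher. Of 6 tested genes of the other activators, the inhibitor and the NRF1 system, 1, 0, 2 and 3 were lower and 1, 1, 1 and 2 higher. Of all tested genes, 20.6%, 18.6%, 24.2% and 22.4% were lower and 21.8%, 20.9%, 26.5% and 27.8% higher in those groups. Psmb11, the thymus-specific catalytic subunit, had 0 counts in every library.

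Between depleted and IgG cells, more of the 20S and 19S genes were higher in the EpCAM-positive than in the EpCAM-negative fraction, a difference that was not tested over the list. The alpha subunits had 2 of 7 higher in EpCAM-negative and 4 of 7 in EpCAM-positive cells and none lower, where 21.9% and 17.6% of all tested genes were higher. Their median log2 fold changes were 0.01 and 0.24, beside 0.03 and -0.02 over all tested genes. Psma1 was higher by 0.26 ± 0.06 and 0.43 ± 0.06 (SE, edgeR, adjusted p = 0.000869 and 2.07e-06). The 19S particle had 4 higher and 5 lower of 19 in EpCAM-negative cells (median 0.00398), against 11 higher and 1 lower in EpCAM-positive cells (median 0.18). With no filter on low counts, or without the libraries numbered 1, 6 genes, not 11, were higher in EpCAM-positive cells (median 0.15 both times) and 1, not 4, in EpCAM-negative cells. Psmd2, a non-ATPase subunit of its base, was higher by 0.38 ± 0.06 in EpCAM-positive cells (adjusted p = 1.03e-05). Of 8 tested assembly factors, 1 was higher and 2 lower in each fraction. These counts lay near the shares of all tested genes, of which 23.2% and 22.4% were lower. Pomp, which assists beta-ring assembly, did not pass, at -0.13 ± 0.08 and 0.17 ± 0.08 in EpCAM-negative and EpCAM-positive cells. Nfe2l1 was lower in depleted cells by -0.46 ± 0.10 and -0.52 ± 0.10 (adjusted p = 0.000587 and 0.000181), as was Ngly1, the deglycosylase that processes NRF1, at -0.35 ± 0.08 and -0.31 ± 0.08. Psme4, the PA200 activator, did not pass in either fraction (0.02 ± 0.12 and 0.27 ± 0.12).

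The class I presentation genes downstream of the proteasome were lower with Psmb8 and Psmb9 in depleted cells. Of 12 genes, 11 were lower and none higher in EpCAM-negative cells, and 9 were lower and 3 higher in EpCAM-positive cells, with medians of -1.10 and -0.75 beside 0.03 and -0.02 over all tested genes. Of all tested genes, 23.2% and 22.4% were lower and 21.9% and 17.6% higher. Tap1, which lies head to head with Psmb9, had 13.3 to 23.0 CPM in depleted EpCAM-negative and 35.8 to 54.9 CPM in depleted EpCAM-positive cells. In the matching IgG cells Tap1 had 57.8 to 109 CPM and 65.6 to 107 CPM. Its log2 fold change was -1.85 ± 0.16 in EpCAM-negative and -0.86 ± 0.15 in the EpCAM-positive fraction (SE, edgeR, adjusted p = 3.47e-10 and 5.26e-05). Tap1 in depleted tumours was lower in EpCAM-negative than in EpCAM-positive cells, by -1.14 ± 0.15, and Psmb9 had -0.33 ± 0.20 there (adjusted p = 0.239). Because 12.5% of the 50-base windows of Psmb9 also lie in Tap1 and the kit marks no strand, a part of their reads cannot be assigned.

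Tap2, the other transporter subunit, was lower by -1.27 ± 0.10 and -0.96 ± 0.10, and Tapbp, the tapasin that bridges transporter and class I molecule, by -0.92 ± 0.07 and -0.57 ± 0.07 in EpCAM-negative and EpCAM-positive cells. B2m, the class I light chain, averaged 343 and 324 CPM in depleted EpCAM-negative and EpCAM-positive cells, against 1484 and 764 CPM in the matching IgG cells. Nlrc5, the transactivator of class I and immunoproteasome genes, ran from 0 to 2.42 CPM in depleted EpCAM-negative and from 0 to 0.571 CPM in depleted EpCAM-positive cells, against 7.52 to 30.1 CPM and 3.41 to 23.4 CPM in the matching IgG cells. It passed in both fractions (adjusted p = 1.93e-05 and 5.17e-06), and depleted and IgG libraries did not overlap. The genes that were higher in depleted EpCAM-positive cells were the endoplasmic reticulum chaperones Pdia3, Canx and Calr, at 0.59 ± 0.06, 0.59 ± 0.06 and 0.39 ± 0.07. None of these was higher in depleted EpCAM-negative cells, where 11 of the 12 class I genes were lower and 1 did not pass.

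The interferon-gamma list had 13 lower and 2 higher of 19 tested genes in EpCAM-negative and 14 lower and 2 higher in EpCAM-positive cells, with medians of -1.35 and -1.50, beside 23.2% and 22.4% of all tested genes lower and medians of 0.03 and -0.02. Irf1, a transcription factor that drives immunosubunit genes, had a median of 85.6 CPM in depleted EpCAM-negative cells (72.6 to 101.3), against 209 CPM in IgG EpCAM-negative cells (157 to 338). In EpCAM-positive cells its median was 67.9 CPM after depletion (58.5 to 86.8), against 196 CPM with IgG (132 to 260.3). Its log2 fold change was -1.35 ± 0.16 and -1.50 ± 0.16 (SE, edgeR, adjusted p = 1.26e-07 and 3.56e-08), and depleted and IgG libraries did not overlap. The GTPase Igtp was lower by -2.28 ± 0.22 and -2.58 ± 0.22. The exceptions that were higher in both fractions were the kinase Jak1 (0.33 and 0.29) and Irf8 (4.04 and 1.53), a factor of myeloid cells. Ifng itself had 0 counts in every library.

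The sort removed CD45-positive cells, and markers of other cells were read beside these values. The 10 leukocyte markers summed to 60.2 to 123 CPM in depleted EpCAM-negative and 51.8 to 90.1 CPM in depleted EpCAM-positive libraries. The matching IgG libraries had 17.5 to 34.6 CPM and 23.2 to 41.3 CPM, so by group these markers were higher where Psmb8 was lower. Of them, 8 were higher and 1 lower in depleted EpCAM-negative, and 7 higher and 1 lower in depleted EpCAM-positive cells. Of all tested genes, 21.9% were higher and 23.2% lower in the EpCAM-negative, and 17.6% higher and 22.4% lower in the EpCAM-positive fraction. Ptprc, the CD45 gene, averaged 4.84 and 4.43 CPM in depleted EpCAM-negative and EpCAM-positive cells, against 0.0567 and 0.764 CPM in the matching IgG cells, and was 0 in both cultures, although the marker sum was 71.8 and 73.9 CPM there, of which Itgb2 averaged 59.1 CPM. The 11 macrophage markers summed to 131 to 317 CPM and 154 to 240 CPM in the depleted fractions, against 67.4 to 117 CPM and 124 to 267 CPM in the matching IgG fractions, and 9 were higher in depleted EpCAM-negative cells and 5 higher and 1 lower in depleted EpCAM-positive cells. In the 2 cultures the macrophage sum was 72.9 and 64.0 CPM, so it does not measure macrophages alone. T and NK markers summed to at most 1.69 CPM in any library, and Cd8a averaged 0 in 4 of the 5 groups and 0.0223 CPM in IgG EpCAM-positive cells. B and dendritic cell markers summed to at most 0.641 CPM. With log2 values centred within groups over the 24 tumour libraries, the leukocyte sum correlated positively with every immunoproteasome member. There r ran from 0.192 (Psme1) to 0.435 (Psmb9), with Psmb8 at 0.351, against -0.39 (Psme3) to 0.139 (Psmb5) for constitutive members. For the macrophage sum, r ran from 0.108 (Psmb8) to 0.547 (Psme2), against -0.329 (Psme3) to 0.312 (Psmb6).

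Summed fibroblast markers ran in the same direction as the immunosubunits between the treatments and against culture, but not in every comparison of fractions. The 8 markers summed to 148 to 197 CPM in depleted EpCAM-negative and 63.0 to 154 CPM in depleted EpCAM-positive libraries, against 1265 to 4851 CPM and 1196 to 3174 CPM in the matching IgG libraries, and 16.8 to 18.4 CPM in culture. Of 7 tested, 5 were lower in depleted EpCAM-negative and 4 in depleted EpCAM-positive cells and none was higher. For the fractions of depleted tumours, the fibroblast sum averaged 174 CPM (EpCAM-negative) and 105 CPM (EpCAM-positive). Psmb9 had the opposite order there, at 11.3 and 14.1 CPM. For the IgG fractions, the sum (3179 and 2518 CPM) and Psmb9 (67.5 and 51.5 CPM) had the same order. Within groups, the fibroblast sum was not set against the members. Dcn averaged 6.43 and 1.95 CPM in the depleted fractions, against 1316 and 1899 CPM in the matching IgG fractions, while Thy1, which encodes the excluded CD90, was at 0.149 CPM or less in every depleted and 0.0593 CPM or less in every IgG library. Endothelial markers summed to 9.08 to 39.5 CPM in depleted EpCAM-negative and to a median of 33.8 and at most 61.4 CPM in depleted EpCAM-positive libraries, against 1.96 to 5.34 CPM and 4.81 to 22.7 CPM in the matching IgG libraries, with 2 of 8 higher in EpCAM-negative and 1 higher and 1 lower in EpCAM-positive cells. Of all tested genes, 21.9% and 17.6% were higher and 23.2% and 22.4% lower in these fractions, so the endothelial counts of higher genes lay near those shares. The part of any of these cells in the member values was not tested, and in sorted bulk RNA fewer cells of a type and less RNA per cell cannot be told apart.

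**Figure D5:**
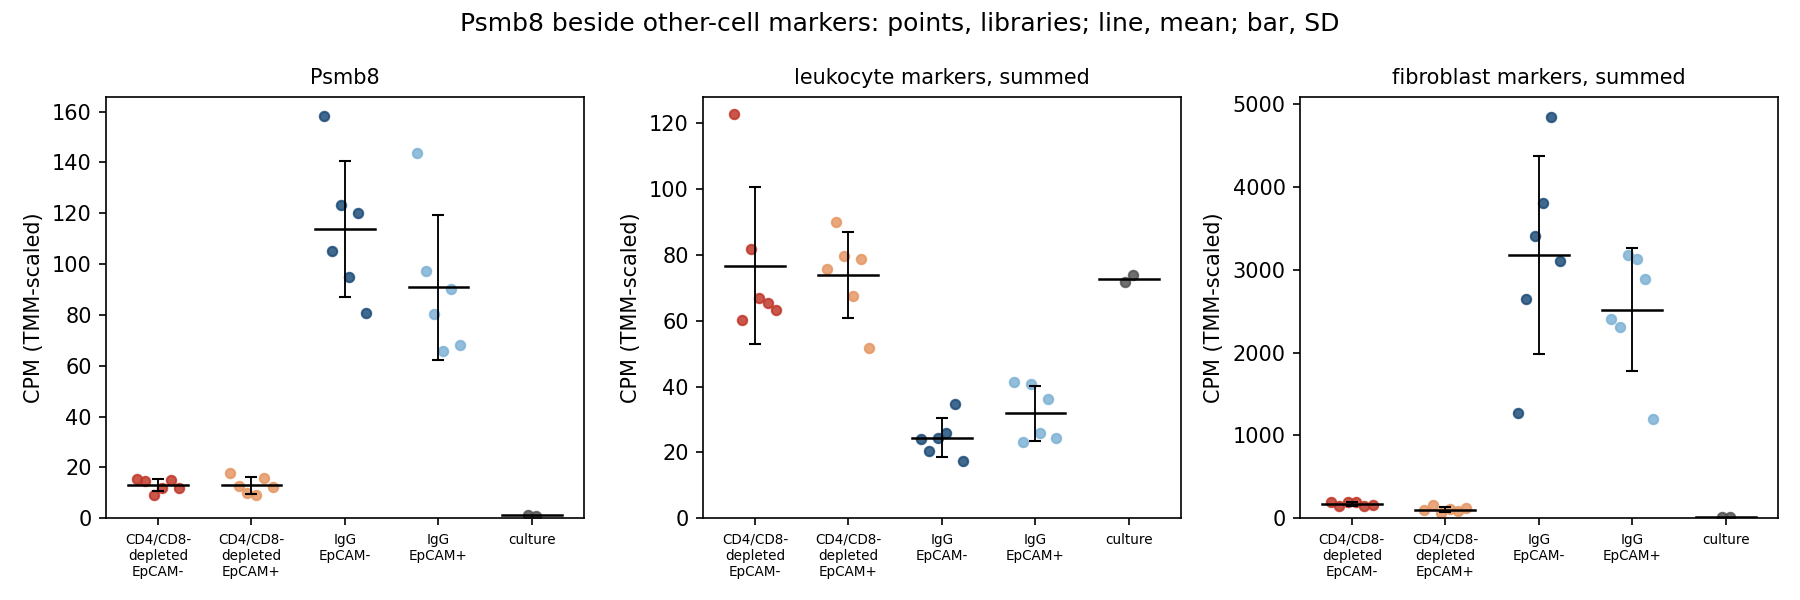
CPM of Psmb8 and summed CPM of the leukocyte and fibroblast markers (y axes, TMM-scaled, from 0) in every library of the 5 groups (x axis); points are libraries, lines are means and bars are SD for the groups of 6. Leukocyte sums are higher in depleted (51.8 to 123 CPM) than in IgG libraries (17.5 to 41.3 CPM), opposite to Psmb8, and fibroblast sums are lower.

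Within groups, libraries differed in step for some members. The library numbered 1 was the highest of its group for Psmb8 and for Psmb9 in all 4 tumour groups, at 15.6, 17.7, 158 and 144 CPM for Psmb8 in depleted EpCAM-negative, depleted EpCAM-positive, IgG EpCAM-negative and IgG EpCAM-positive cells. Removing these 4 libraries together left every call on Psmb8, Psmb9 and Psmb10 between depleted and IgG cells in place. Across the 24 tumour libraries, after centring log2 CPM within groups, Psmb8 and Psmb9 correlated at r = 0.776 and Psme1 and Psme2 at r = 0.748, while Psmb8 and Psme1 had r = 0.163 and Psmb9 and Psme3 had r = -0.41. These are descriptions over libraries that differ in depth, and fractions with the same number may come from the same tumour.

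Among 10130 genes with a mean of at least 5 CPM, the profile over 26 libraries most like the mean of Psmb8, Psmb9 and Psmb10 was that of Fam129a, with a root mean square difference of 0.37 on the centred log2 scale. Fkbp14, Cpq, Hist1h2bc, Inhbb and Slc29a1 followed, up to 0.43. Their likeness lay in the levels of the groups, since within groups their correlation with the immunosubunit mean ran from -0.148 (Inhbb) to 0.509 (Fam129a). Fam129a had medians of 15.1 and 10.3 CPM in depleted EpCAM-negative and EpCAM-positive cells, 45.5 and 44.4 CPM in the matching IgG cells and 2.72 CPM in culture. The profile most like Psmb5, Psmb6 and Psmb7 was that of Eef1d, with a difference of 0.0935, followed by Psmb2, Snrpb, Ndufa12, Mdh2 and Psma4, up to 0.106. Psmb2 and Psma4 are themselves subunits of the 20S core.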

How the data were processed

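RNA of 26 samples was sequenced as single reads of 50 bases from amplified cDNA, per the labels' protocols, with a kit that marks neither strand nor single molecules. The authors deposited raw counts per gene, made with STAR on mm9 per the submitters' processing notes, with the counting program and annotation not given in the sources used here. A second deposited table, transformed with DESeq2 1.22.2 per those notes, was not used. Groups came from the titles. Counts were scaled by TMM and tested with edgeR 4.0.16 under R 4.3.3, in a quasi-likelihood model with a coefficient per group fitted to all libraries. After its filter, 16637 features remained, and 9 comparisons were tested with Benjamini-Hochberg adjustment at 0.05. Standard errors were derived from the test statistic, and 95% intervals from its degrees of freedom. The procedure was tested on simulated counts. Levels per kilobase used the principal transcript of GENCODE M21, and shared 50-base windows were counted among its transcripts. Coordinates are given only for RefSeq promoters, on GRCm38.p6 and not on the mm9 build of the counts. The members and the gene lists were chosen with earlier results of these data known. Besides the members, up to 4 genes with the smallest p per list, the 6 most alike profiles and 13 fixed genes were named, 1 of which is not reported here. Alternatives were DESeq2 1.42.0, other scaling and filtering, thinning, subsets of libraries and a replicate block.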

Additional observations from a re-analysis of the deposited data

Results flagged for a closer look

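Of 80 groups of 6 libraries examined for members, ratios and marker sums, 7 had a highest library far from the other 5 by Dixon's criterion, which chance gives in about 1 of 20 groups. Psmb9 reached 20.0 CPM in depleted EpCAM-positive library 1, with the others at 10.4 to 14.0 CPM, and 99.9 CPM in IgG EpCAM-negative library 1, with the others at 49.5 to 68.4 CPM. In IgG EpCAM-positive library 1 the per-length ratio Psmb8/Psmb5 was 8.83, with the others at 3.59 to 4.99, and Psmb9/Psmb6 was 0.399, with the others at 0.143 to 0.232. B and dendritic cell markers summed to 0.563 CPM in that library, with the others at 0 to 0.178 CPM. Leukocyte markers summed to 123 CPM in depleted EpCAM-negative library 1, with the others at 60.2 to 81.8 CPM. Endothelial markers summed to 39.5 CPM in depleted EpCAM-negative library 5, with the others at 9.08 to 19.6 CPM.

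The difference of the EpCAM contrasts (depleted minus IgG) was examined for 20 tested genes, the members and the always-named genes, and 4 passed in edgeR. Tap1 had -0.99 (adjusted p = 0.00159) and B2m -0.88 (adjusted p = 0.0174) on the log2 scale, neither of them a proteasome member. Ptprc had 3.78 (adjusted p = 0.0156) and Csf1r, a macrophage receptor, 2.08 (adjusted p = 0.000304).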

How the results depend on the processing

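Other settings were DESeq2 size factors, the DESeq2 Wald test, no filter, only the groups compared, counts thinned to the lowest total and a replicate block. Summing near-identical copies, removing all tumour libraries numbered 1 and recounting the gene lists under each setting were chosen after seeing the data. No called member changed direction, and Psmb8, Psmb9, Psmb10 and Psme1 kept their calls between depleted and IgG cells in every one. The cause of the changes below was not tested. With the replicate block within treatment, 14485 genes were tested. The share of all tested genes called under each other setting is not given here, so the member counts below are not set against it.

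Members called between EpCAM fractions of IgG tumours numbered 1 with DESeq2 size factors, no filter, only the groups compared or thinned counts, against 2. In depleted tumours 2 were called with copies summed, against 1, since Psmb5 then passed (0.31, adjusted p = 0.0176). For the difference of the EpCAM contrasts, 1 was called without the libraries numbered 1, against 0.

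Same-numbered libraries correlated at 0.0175 to 0.0469 in depleted and 0.0497 to 0.172 in IgG tumours, where 4 of 6 pairs exceeded 0.1. Of 12 libraries, 6 in depleted and 10 in IgG tumours correlated best with their own number. Pairing by number is therefore possible, most of all in IgG tumours, but it is not stated and not every pair exceeded 0.1. The main fit had no block. With a replicate block within treatment, 2, 5 and 2 members were called for depleted tumours, IgG tumours and the difference. Between IgG fractions Psmb8 (0.32, adjusted p = 0.00765), Psmb9 (0.39, 0.00985) and Psme2 (0.18, 0.0144) then passed, in depleted tumours Psmb9 (-0.34, 0.0298), and in the difference Psmb9 (-0.73, 0.00312) and Psme2 (-0.22, 0.0427). With a block across treatments, Psmb6 lost its call between depleted and IgG EpCAM-positive cells (0.24, 0.0557).

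Leaving out single libraries gave 1 to 2, 1 to 3 and 0 to 1 members for the EpCAM contrast in depleted tumours, in IgG tumours and their difference. All genes called numbered 4318 to 4687, 4054 to 4513 and 2706 to 3021 there. For depleted against IgG cells it gave 5 to 6 members in EpCAM-positive cells and 5 throughout in EpCAM-negative cells, beside 6132 to 6522 and 7004 to 7366 of all genes. Against culture it gave 8 to 9 members for depleted EpCAM-negative, 7 to 9 for depleted EpCAM-positive, and 8 to 9 for each IgG fraction. All genes called numbered 4841 to 7094 and 4411 to 6559 for these depleted fractions. For IgG EpCAM-negative and EpCAM-positive cells they numbered 6498 to 8346 and 6237 to 8302.

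Values near 0 that passed no test changed sign. For Psmb6 between IgG fractions they were -0.00691 (DESeq2 size factors), -0.0069 (Wald test), -0.0206 (only the groups compared), -0.0121 (thinned), -0.00921 (block) and -0.0263 (without the libraries numbered 1). For Psmb5 in the difference they were 0.00166, 0.000774, 0.00512, 0.0168, 0.00771 and 0.0774 in that order, and 0.0459 with copies summed. Psme1 had 0.00658 there without the libraries numbered 1. Between depleted and IgG EpCAM-negative cells, Psmb7 had 0.0123 (only the groups compared), 0.0269 (thinned) and 0.00791 (replicate block across treatments), and Psmb5 0.0392 (thinned) and 0.0225 (copies summed). Psmb5 had 0.0224 in EpCAM-positive cells (thinned). With single libraries left out, ranges in depleted tumours between fractions were -0.0594 to 0.13 for Psmb8, -0.0727 to 0.0147 for Psme2 and -0.101 to 0.0104 for Psmb7. Psmb6 between IgG fractions ran from -0.0365 to 0.0342. In the difference Psmb10 ran from -0.00893 to 0.183, Psme1 from -0.0493 to 0.0231 and Psmb5 from -0.0688 to 0.0526. Depleted against IgG, Psmb5 ran from -0.078 to 0.0278 and Psmb7 from -0.056 to 0.0291 in EpCAM-negative cells, and Psmb5 from -0.0749 to 0.0467 in EpCAM-positive cells. Depth limits Psmb8 in culture, where 44 and 32 counts were found.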
